A study of Mus musculus with 15 samples.

Results

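The homeobox genes described here comprised 84 of the 55228 genes listed in every library. They were chosen by symbol alone, as the Hoxa to Hoxd genes followed by a number and the genes of the Nkx-, Six-, Lhx-, Dlx-, Irx- and Pax-families. The RNA came from 81K1 mouse embryonic stem cells (mESC), a line built on 1 clone (K1) of OG2 cells in which an anti-Smarcb1 shRNA cassette sits in the Rosa26 locus under a doxycycline-dependent promoter. Smarcb1 belongs to the core of BAF, a complex that moves nucleosomes, and the study asked how gene expression changes when it is depleted. All 5 groups shared this genotype and a medium with serum and leukaemia-inhibitory factor. Control cells (ctrl) carried the cassette but received no doxycycline and were taken at 48 h and 240 h. Knockdown cells (kd) received 1 µg doxycycline per ml each day for 48 h, 72 h or 240 h. Each group held 3 libraries. Neither a 72 h control nor a line that received doxycycline but lacked the shRNA was analysed here, so an effect of the drug and one of the shRNA cannot be told apart.

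Homeobox genes encode transcription factors that bind DNA through the homeodomain. The Hox genes stand in clusters and give cells their position along the body axis, and in embryonic stem cells most of them are held silent by Polycomb complexes. Six-family factors act with Eya cofactors in sense organs, kidney and muscle. Nkx factors pattern the neural tube and the gut, Irx factors the neural plate, heart and limbs, Lhx and Dlx factors the forebrain and its interneurons. Pax factors share a paired domain, some with a complete, some with a partial and some with no homeodomain.

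Smarcb1 itself gave between 953 and 1162 reads in the 6 ctrl libraries and between 144 and 239 reads in the 9 kd libraries. The reduction was 5.64-fold at 48 h, 6.36-fold at 72 h and 5.17-fold at 240 h. Library totals lay between 11074998 and 14515300 reads. The 48 h kd replicate 2 library stood apart from the others of its group in its share of mitochondrial reads (2.53%, against 0.507% to 1.95% in the other 14 libraries). Leaving it out did not change the number of homeobox genes called at 48 h. In its group, 240 h ctrl replicate 3 stood apart likewise (0.507%, against 1.26% and 1.45%), and without it the number called at 240 h was also unchanged. The labels do not say that libraries of a group came from separate cultures, so p-values measure only the spread between these libraries.

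Most of the homeobox genes were close to silent. With a mean of at least 10 reads per library as the minimum, 15 of the 84 were followed, against 16370 of all listed genes. These were 2 of 38 Hox genes (Hoxc13, Hoxd13), 4 of 13 Nkx genes (Nkx2-4, Nkx2-9, Nkx6-2, Nkx6-3), 3 of 5 Six-family genes (Six4, Six5, Six6), 3 of 6 Irx genes (Irx2, Irx3, Irx5), 2 of 8 Pax genes (Pax2, Pax8), 1 of 8 Lhx genes (Lhx6) and 0 of 6 Dlx genes. Of the 69 below the minimum, Nkx3-2 and Hoxa6 had 0 reads in all 15 libraries. The genes nearest to the minimum were Pax8 (10.7 reads), Irx3 (10.9) and Nkx2-4 (11.2) above it and Pax5 (9.80), Hoxa3 (9.40) and Hoxa7 (8.27) below it. Over the ctrl libraries alone Six6, Pax2 and Irx3 would have missed the minimum, and over the kd libraries alone Pax8 and Nkx2-4 would have missed it. These 5 genes were therefore tested because they were high in 1 of the 2 conditions.

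The deposited unit is FPKM, reads per length of gene span and library total, so that levels stand per base of span, introns included. In the 48 h ctrl libraries the highest level was that of Nkx6-2 (4.40 ± 0.08 FPKM, SD, n = 3), followed by Six4 (3.72 ± 0.12 FPKM), Six5 (1.93 ± 0.21 FPKM) and Nkx6-3 (1.16 ± 0.08 FPKM). The other 11 genes lay between 0.008 and 0.62 FPKM. Genes with long introns such as Pax2 and Pax8 are low on this scale, so the order is one of span levels and not of transcript levels.

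A gene was called when limma gave an adjusted p under 0.05 over all genes tested and an absolute log2 fold change above 0.58, on log2(RPM + 0.1), where RPM are reads scaled to a common library total, a scale that understates changes of the lowest genes. At 48 h, 6 of the 15 genes were called, 4 higher and 2 lower in kd. The background was 10.2% of all genes, with 4.96% up and 5.27% down. At 72 h against the 48 h ctrl libraries, 10 were called, 7 higher and 3 lower, while 22.2% of all genes were called, 11.9% higher and 10.3% lower. At 240 h, 10 were called, 5 higher and 5 lower, while 16.9% of all genes were called, 8.94% higher and 7.98% lower. Because 5 of the 15 genes reached the minimum through only 1 condition, these shares are not comparable with the background. Groups without overlap, a trait given for single genes in what follows, were found in 41.3%, 64.9% and 53.0% of all genes at 48 h, 72 h and 240 h. The 48 h and 72 h comparisons share their control libraries. These are bulk libraries, in which a change in the number of cells that express a gene and a change in the RNA per cell cannot be told apart.

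Over the 3 knockdown comparisons, 3 genes were called higher each time (Six4, Six6, Nkx2-9) and 2 were called lower each time (Pax8, Nkx6-2). Of these, Six6 reached the minimum only through kd and Pax8 only through ctrl. The share of all genes called alike each time is not given. Nkx6-3 was the 1 gene called in opposite directions, up at 48 h and 72 h but down at 240 h. A further 6 were called at 1 or 2 of the times, and Hoxd13, Irx2 and Lhx6 were called at none.

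**Figure D1:**
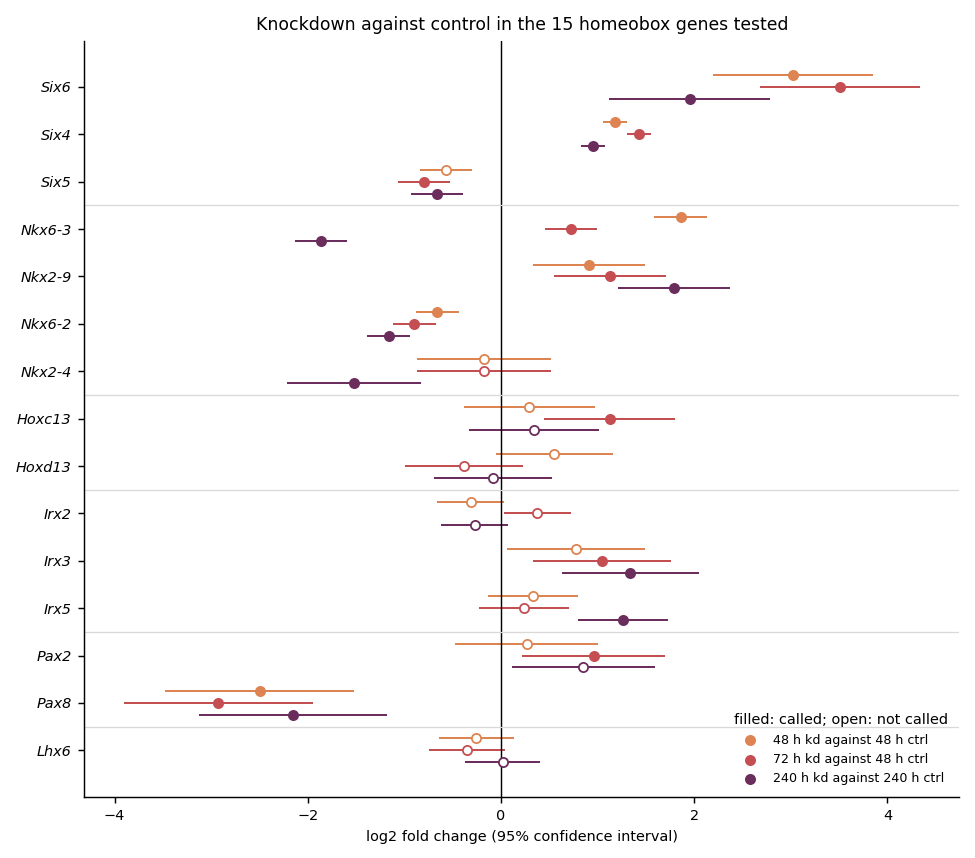
Log2 fold change (points) with its 95% confidence interval (lines) for the 15 homeobox genes tested, knockdown against control at 48 h, 72 h and 240 h (colours), grouped by family; filled points were called. Six4 and Six6 lie to the right of 0 at all times, Pax8 and Nkx6-2 to the left, and Nkx6-3 goes from 1.86 at 48 h to -1.87 at 240 h.

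Among the Six-family genes, Six6 and Six4, which lie 154.7 kb apart on chromosome 12, both rose at all times, while Six5 fell at 72 h and 240 h. Positions are those of GRCm38 (mm10). Six6 (chr12:72939892-72944899, plus strand) acts in eye and pituitary development. It gave 4, 0 and 2 reads in ctrl at 48 h, 24, 18 and 17 in kd at 48 h, 35, 24 and 35 in kd at 72 h, 3, 5 and 4 in ctrl at 240 h and 13, 27 and 25 in kd at 240 h. Every kd library was above every ctrl library, and Six6 reached the minimum only through kd. The log2 fold change was 3.02 ± 0.40 (SE) at 48 h, 3.50 ± 0.40 at 72 h and 1.95 ± 0.40 at 240 h in limma (adjusted p = 4.98e-06, 2.16e-07 and 4.29e-04). With pseudocounts of 0.5 and 0.02 RPM in place of 0.1 it was 1.77 and 4.01 at 48 h, 2.18 and 4.51 at 72 h and 1.30 and 2.19 at 240 h, and each call held.

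Six4 (chr12:73099609-73113456, minus strand), which acts in muscle and kidney, had the most reads of all 84 genes. They numbered 683, 587 and 587 in ctrl at 48 h, 1305, 1504 and 1214 in kd at 48 h, 1786, 1727 and 1813 in kd at 72 h, 831, 780 and 746 in ctrl at 240 h and 1699, 1661 and 1644 in kd at 240 h. The groups were again apart in every library. Its log2 fold change was 1.18 ± 0.06 at 48 h, 1.43 ± 0.06 at 72 h and 0.95 ± 0.06 at 240 h (SE; limma, adjusted p = 4.82e-12, 6.20e-14 and 4.30e-11).

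**Figure D2:**
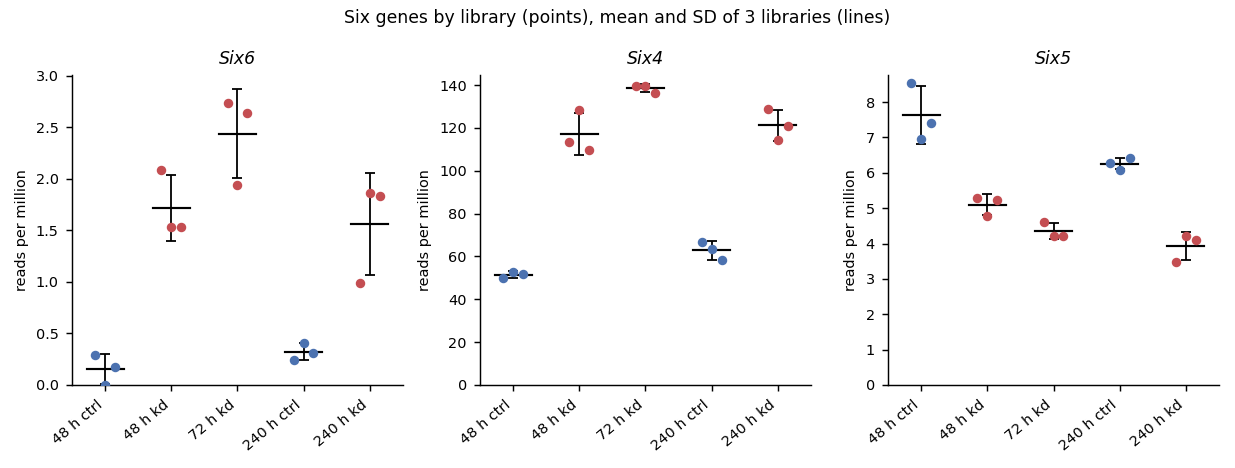
RPM (vertical axis, from 0) of Six6, Six4 and Six5 in the 15 libraries (points; blue ctrl, red kd), with the mean and SD of 3 libraries per group (lines). All kd libraries of Six6 and Six4 lie above all ctrl libraries, and those of Six5 lie below.

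Mnat1, which starts 10261 bases from Six4 and was singled out after its values were seen, had log2 fold changes of 0.21, 0.32 and 0.15 in the 3 comparisons, under the fold threshold. Six6 shares 883 bases with 4930447C04Rik on the opposite strand. Reads appear to have been counted without regard to strand, so those in the shared bases cannot be assigned. 4930447C04Rik was not called at 48 h, 72 h or 240 h, with log2 fold changes of 0.48, 0.57 and 0.24.

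The promoters of the Six-family genes that rose and of Pax8, which fell at all times, are shown with their CpG content. RefSeq promoters (GRCm38.p6) of 250 bases before to 50 bases after a start were at hand for 56 of the 84 genes. Those not matched among the 15 followed were Nkx6-3, Irx5 and Hoxc13. Only bases ahead of any annotated UTR are printed, 5′ to 3′ along the gene, with each CpG in capitals. The Six6 stretch is chr12:72939632-72939721 (plus strand), that of Six4 is chr12:73113457-73113675 (minus strand) and that of Pax8 is chr2:24475600-24475849 (minus strand). That of Six6 lies within the span of 4930447C04Rik and stops short of the Six6 span, whereas those of Six4 and Pax8 reach up to their spans.
Six6: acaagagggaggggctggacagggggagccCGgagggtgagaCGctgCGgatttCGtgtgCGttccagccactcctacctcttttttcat
Six4: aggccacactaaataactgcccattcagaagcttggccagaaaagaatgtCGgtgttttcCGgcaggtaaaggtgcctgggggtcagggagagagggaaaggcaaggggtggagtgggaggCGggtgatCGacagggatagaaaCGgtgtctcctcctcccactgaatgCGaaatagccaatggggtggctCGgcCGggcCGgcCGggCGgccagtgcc
Pax8: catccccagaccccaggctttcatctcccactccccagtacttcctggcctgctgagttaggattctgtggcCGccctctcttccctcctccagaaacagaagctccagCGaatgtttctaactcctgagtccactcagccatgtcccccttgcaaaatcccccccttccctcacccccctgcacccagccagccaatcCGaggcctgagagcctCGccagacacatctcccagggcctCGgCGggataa
The stretch of Six6 held 5 CpG in 90 bases and that of Six4 11 CpG in 219 bases, while that of Pax8 held 6 CpG in 250 bases. Relative to the base composition, the observed over expected CpG ratio was 0.64, 0.59 and 0.31, in that order. In the full windows it was 0.69 for Six6, 0.71 for Six4 and 0.57 for Nkx2-9, which were called higher at all times, and 0.29 for Pax8 and 0.97 for Nkx6-2, which were called lower. It thus did not part the genes that rose from those that fell. Among the matched homeobox genes, 34 of 56 (60.7%) had a window of over 50% GC and a ratio above 0.6, against 9653 of 27025 genes with a promoter (35.7%). The core homeodomain motif TAATTA, which reads alike on both strands, was found in 1 of the 56 windows (1.79%) and in 5.20% of all windows. A match or its absence is a description of these letters and says nothing of binding.

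Six5, which stands beside the myotonic dystrophy kinase gene Dmpk on chromosome 7 (chr7:19094594-19098549, plus strand), went the other way. It gave 117, 77 and 84 reads in ctrl at 48 h, 61, 56 and 58 in kd at 48 h, 59, 52 and 56 in kd at 72 h, 78, 75 and 82 in ctrl at 240 h and 46, 61 and 56 in kd at 240 h. All kd libraries were below all ctrl libraries. Its log2 fold change was -0.79 at 72 h and -0.66 at 240 h (SE 0.13 each; limma, adjusted p = 2.47e-05 and 2.93e-04). At 48 h the difference of -0.57 missed the fold threshold (adjusted p = 0.0019), and at 240 h the call was lost without 240 h kd replicate 1, where the difference was -0.58 (adjusted p = 0.0027). With 240 h ctrl as the control for 72 h it was -0.52 (adjusted p = 0.0017), under the fold threshold.

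The Nkx genes held the 1 gene that turned direction. Nkx6-3 (chr8:23153269-23158948, plus strand) is known from the stomach epithelium. It gave 84, 78 and 75 reads in ctrl at 48 h, 299, 246 and 286 in kd at 48 h, 153, 136 and 132 in kd at 72 h, 150, 118 and 116 in ctrl at 240 h and 34, 45 and 34 in kd at 240 h. All 48 h kd libraries were the highest of the 15 and all 240 h kd libraries the lowest. Its log2 fold change was 1.86 ± 0.13 (SE) at 48 h and 0.72 ± 0.13 at 72 h, and turned to -1.87 ± 0.13 at 240 h (limma, adjusted p = 7.23e-10, 7.63e-05 and 1.90e-10). In other words, the level in kd was 3.63-fold higher at 48 h and 3.65-fold lower at 240 h.

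The effects of knockdown on Nkx6-3 at 240 h and at 48 h differed by -3.72 ± 0.18 (SE) on the log2 scale in the test of the difference itself (limma, adjusted p = 6.28e-12). Its control level also differed with time, being 0.62 ± 0.13 higher at 240 h than at 48 h (limma, adjusted p = 0.0034). This was the 1 homeobox gene called among controls, where 1.56% of all genes were called, and the difference fell to as low as 0.49 and under the fold threshold without 48 h ctrl replicate 1 or 240 h ctrl replicate 1. With the 240 h ctrl libraries as the control for 72 h, the 72 h difference of Nkx6-3 was 0.11 (limma, adjusted p = 0.49) and no longer called. The call at 72 h thus depended on which control was used, whereas 48 h and 240 h each had a control of the same time.

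Of the 7 genes tested within 250000 bases of Nkx6-3, Ank1 and the antisense RNA Gm15816 were called higher at 48 h and 72 h. At 240 h only Gm15816 was called lower, as was noticed after their values were seen. Gm15816 (chr8:23138794-23149585, minus strand) starts 3684 bases ahead of Nkx6-3, head to head with it. It gave between 13 and 26 reads in ctrl at 48 h, between 54 and 84 in kd at 48 h, between 35 and 38 in kd at 72 h, between 17 and 28 in ctrl at 240 h and between 10 and 15 in kd at 240 h. Gm15816 differed by 1.98 at 48 h, 0.92 at 72 h and -0.93 at 240 h on the log2 scale (limma, adjusted p = 1.38e-06, 0.0023 and 0.0031).

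The erythrocyte ankyrin gene Ank1 (chr8:22974844-23150497, plus strand) contains Gm15816 whole. The difference of Ank1 was 1.69 on the log2 scale at 48 h and 0.71 at 72 h, and at 240 h it was -0.53 and not called (limma, adjusted p = 3.10e-07, 0.0021 and 0.021). As counting appears to have ignored strand, the reads of Gm15816 are taken as part of those of Ank1 and cannot be assigned to 1 of them. Outside Gm15816, Ank1 had between 8 and 13 reads in ctrl at 48 h, between 16 and 26 in kd at 48 h, between 11 and 16 in kd at 72 h, between 10 and 20 in ctrl at 240 h and between 13 and 18 in kd at 240 h. Most of the 74 to 110 reads of Ank1 in kd at 48 h thus lay in the last stretch before Nkx6-3, which Gm15816 spans.

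**Figure D3:**
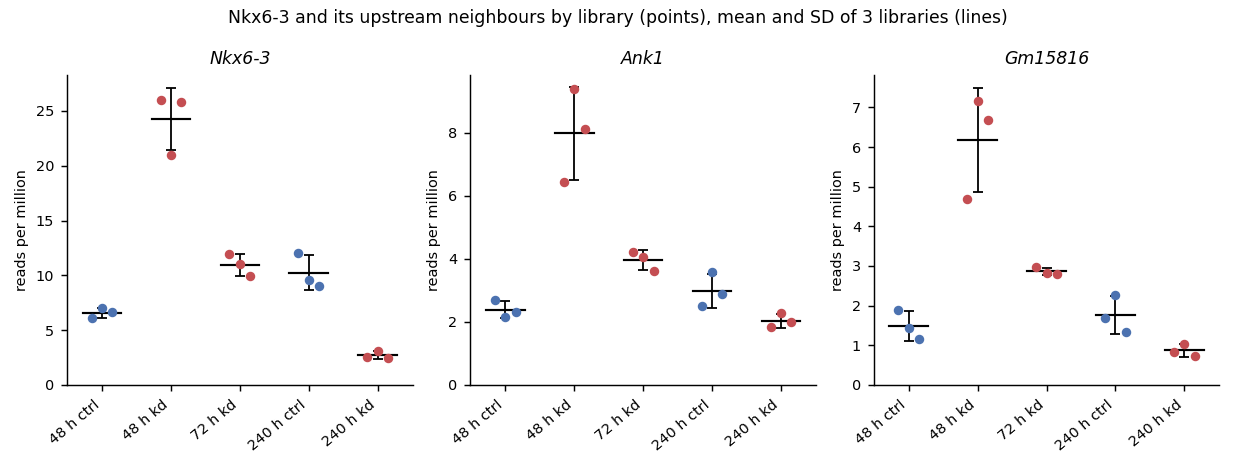
RPM (vertical axis, from 0) of Nkx6-3, Ank1 and Gm15816 in the 15 libraries (points; blue ctrl, red kd), with the mean and SD of 3 libraries per group (lines). All 3 genes are highest in kd at 48 h, and Ank1 is taken to include the reads of Gm15816.

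Nkx6-2 (chr7:139579376-139582797, minus strand), which acts in the ventral neural tube and in oligodendrocytes, fell at all times. It gave 211, 166 and 168 reads in ctrl at 48 h, 120, 105 and 102 in kd at 48 h, 101, 95 and 114 in kd at 72 h, 168, 171 and 226 in ctrl at 240 h and 85, 94 and 94 in kd at 240 h. No kd library reached a ctrl library. The log2 fold change was -0.66 at 48 h, -0.90 at 72 h and -1.16 at 240 h (SE 0.11 each; limma, adjusted p = 7.27e-05, 4.96e-07 and 1.70e-08). Inpp5a, which shares 277 bases with it on the opposite strand, was not called in these comparisons.

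Nkx2-9 (chr12:56611389-56613284, minus strand), a gene of the ventral neural tube, rose at all times. Its reads were 9, 9 and 10 in ctrl at 48 h, 17, 12 and 27 in kd at 48 h, 22, 17 and 34 in kd at 72 h, 13, 17 and 19 in ctrl at 240 h and 59, 63 and 73 in kd at 240 h. Each kd group lay above the control it was compared with. The log2 fold change was 0.91 at 48 h, 1.13 at 72 h and 1.79 at 240 h (SE 0.28 each; limma, adjusted p = 0.016, 0.0016 and 2.20e-05). The 48 h call was lost without 48 h ctrl replicate 1 or 48 h kd replicate 3 (adjusted p = 0.057 to 0.118), and in a separate fit of the libraries compared (0.059). With 240 h ctrl as the control for 72 h, the difference was 0.47 (adjusted p = 0.149).

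Nkx2-4 (chr2:147083316-147085445, minus strand), which is expressed in the developing hypothalamus, was called lower at 240 h alone. It gave 16, 7 and 18 reads in ctrl at 48 h, 9, 12 and 11 in kd at 48 h, 13, 16 and 8 in kd at 72 h, 14, 12 and 18 in ctrl at 240 h and 5, 4 and 5 in kd at 240 h. The 240 h kd libraries were the lowest of the 15, and the other 4 groups overlapped. Nkx2-4 reached the minimum only through ctrl. The log2 fold change at 240 h was -1.52 ± 0.33 (SE; limma, adjusted p = 8.52e-04), with differences of -0.18 at 48 h and -0.17 at 72 h.

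The posterior genes Hoxc13, known from hair and nails, and Hoxd13, known from digits, had few reads. Hoxc13 (chr15:102921103-102928814, plus strand) gave 13, 11 and 3 reads in ctrl at 48 h, 9, 10 and 9 in kd at 48 h, 19, 18 and 22 in kd at 72 h, 19, 14 and 17 in ctrl at 240 h and 19, 27 and 25 in kd at 240 h. It was called higher at 72 h alone (log2 fold change 1.13 ± 0.33, SE; limma, adjusted p = 0.0058). Among the fits that left out 1 library the difference was smallest without 48 h ctrl replicate 3 (0.61), and with the 240 h ctrl libraries as control it was 0.20 (adjusted p = 0.615). Hoxd13 gave between 6 and 18 reads over all libraries, with differences of 0.55, -0.38 and -0.08 at 48 h, 72 h and 240 h, and was not called against control.

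Irx3 and Irx5, which stand in 1 cluster on chromosome 8 and pattern the neural plate, heart and limbs, were higher in the late kd cells. Irx3 (chr8:91798525-91802067, minus strand) gave 11, 3 and 3 reads in ctrl at 48 h, 7, 10 and 9 in kd at 48 h, 11, 10 and 15 in kd at 72 h, 6, 9 and 6 in ctrl at 240 h and 22, 19 and 23 in kd at 240 h. Its span overlaps that of Irx3os (mean of 4.87 reads), and reads in the shared bases cannot be assigned. Irx3 reached the minimum only through kd. At 240 h all 3 kd libraries were above all 6 ctrl libraries by reads, and in RPM this was also so at 72 h, by a narrow margin (lowest 0.81 in kd, highest 0.80 in ctrl). Its log2 fold change was 0.78 at 48 h, 1.05 at 72 h and 1.34 at 240 h (SE 0.34 each; limma, adjusted p = 0.088, 0.013 and 0.0032). The 72 h call was lost without 48 h ctrl replicate 2, 48 h ctrl replicate 3 or 72 h kd replicate 3 (adjusted p = 0.056 to 0.066), with no minimum (adjusted p just above 0.05) and with 240 h ctrl as control (0.65, adjusted p = 0.103).

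Irx5 (chr8:92357625-92376286, plus strand) gave 19, 13 and 14 reads in ctrl at 48 h, 15, 21 and 20 in kd at 48 h, 14, 23 and 22 in kd at 72 h, 16, 15 and 17 in ctrl at 240 h and 39, 47 and 47 in kd at 240 h. The 240 h kd libraries stood above the other 12, which overlapped. The log2 fold change was 0.33 at 48 h, 0.23 at 72 h and 1.27 at 240 h (SE 0.22 each; limma, adjusted p = 0.273, 0.385 and 9.86e-05). The third gene of the family, Irx2 on chromosome 13, gave between 28 and 66 reads and was not called against control, with differences of -0.32, 0.38 and -0.27.

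Pax8 and Pax2, which act together in kidney development and of which Pax8 also makes the thyroid, went opposite ways where they were called. Pax8 (chr2:24420560-24475599, minus strand) gave 28, 15 and 23 reads in ctrl at 48 h, 1, 3 and 5 in kd at 48 h, 2, 1 and 3 in kd at 72 h, 24, 24 and 16 in ctrl at 240 h and 7, 7 and 1 in kd at 240 h. No kd library had more than 7 reads and no ctrl library fewer than 15, and Pax8 reached the minimum only through ctrl. Its log2 fold change was -2.50 at 48 h, -2.93 at 72 h and -2.15 at 240 h (SE 0.47 each; limma, adjusted p = 3.05e-04, 2.04e-05 and 8.13e-04). Without 240 h kd replicate 3, which had 1 read, the 240 h difference was -1.55 and the call held. With a pseudocount of 0.5 RPM the differences were -1.61, -1.81 and -1.39, all called.

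The gene beside Pax8 moved with it, as was noticed after the values were seen. Psd4 (chr2:24367580-24414954, plus strand), an exchange factor for ARF6, ends 5606 bases from the end of Pax8, tail to tail, and the spans do not overlap. It gave between 59 and 86 reads in ctrl at 48 h, between 6 and 27 in kd at 48 h, between 10 and 14 in kd at 72 h, between 66 and 82 in ctrl at 240 h and between 28 and 34 in kd at 240 h. Psd4 differed by -2.15 on the log2 scale at 48 h, -2.51 at 72 h and -1.40 at 240 h (limma, adjusted p = 1.75e-05, 7.87e-07 and 0.0011).

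Pax2 (chr19:44756045-44837871, plus strand) gave 15, 7 and 3 reads in ctrl at 48 h, 10, 7 and 8 in kd at 48 h, 19, 17 and 12 in kd at 72 h, 7, 12 and 10 in ctrl at 240 h and 19, 23 and 18 in kd at 240 h. Pax2 reached the minimum only through kd. It was called higher at 72 h alone (log2 fold change 0.96 ± 0.36, SE; limma, adjusted p = 0.026), where the groups overlapped. At 240 h the groups did not overlap, and the difference of 0.85 ± 0.36 had an adjusted p = 0.057 in limma. The 72 h call was lost without 48 h ctrl replicate 3, 72 h kd replicate 1 or 72 h kd replicate 2 (adjusted p = 0.076 to 0.201), with no minimum (0.079) and with the 240 h ctrl libraries as control (0.63, adjusted p = 0.127). Lhx6, which specifies forebrain interneurons, gave between 28 and 56 reads and differed by -0.26, -0.35 and 0.02 at 48 h, 72 h and 240 h without a call.

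**Figure D4:**
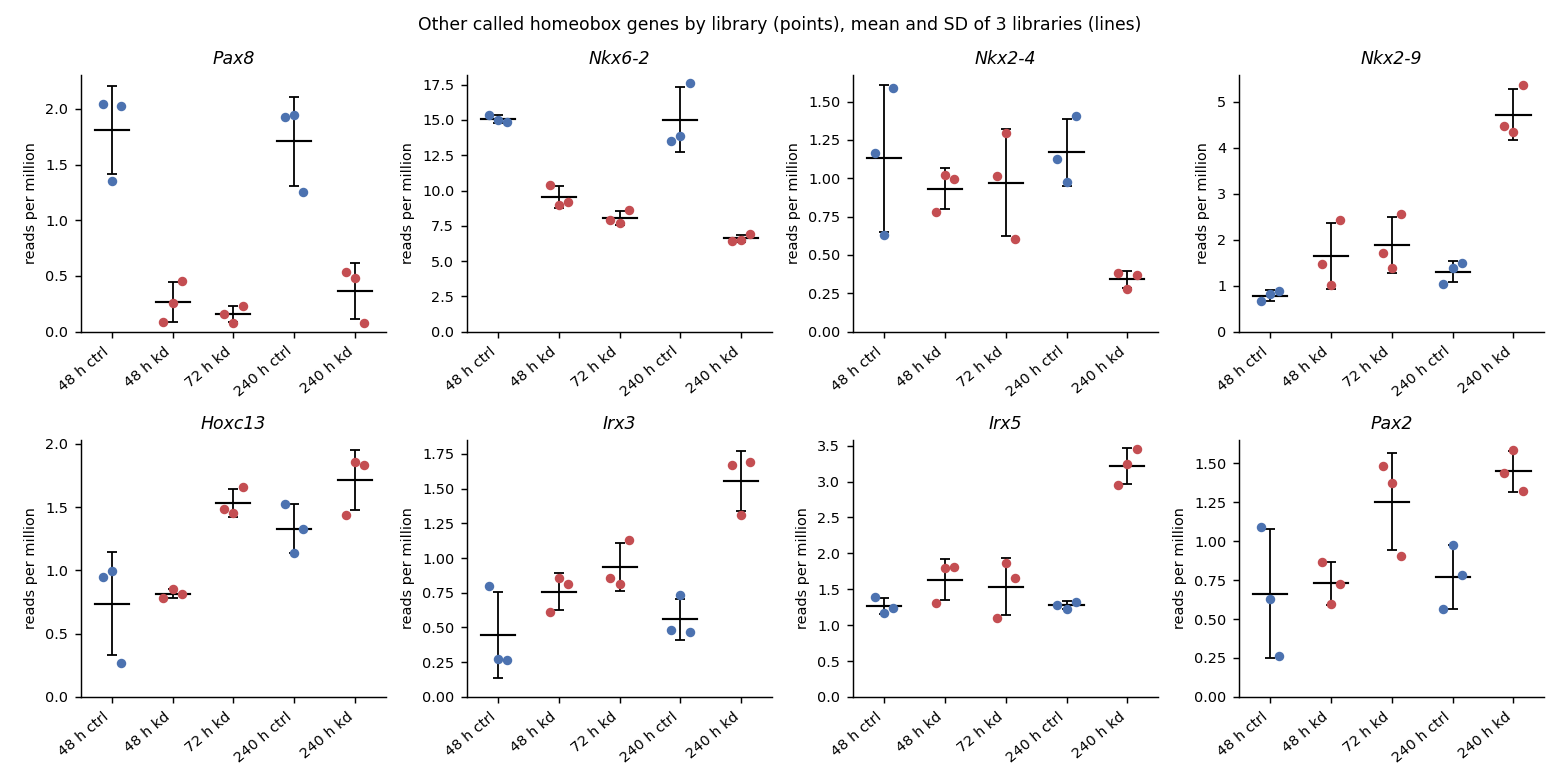
RPM (vertical axis, from 0) of Pax8, Nkx6-2, Nkx2-4, Nkx2-9, Hoxc13, Irx3, Irx5 and Pax2 in the 15 libraries (points; blue ctrl, red kd), with the mean and SD of 3 libraries per group (lines). Pax8 and Nkx6-2 are low in all kd groups, and Nkx2-9, Irx3 and Irx5 are highest in kd at 240 h.

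Between kd groups, 4 of the 15 genes were called from 48 h to 72 h, where 13.4% of all genes were called. Irx2 (0.69) and Hoxc13 (0.83) were higher and Hoxd13 (-0.94) and Nkx6-3 (-1.13) lower at 72 h on the log2 scale. From 72 h to 240 h, 6 were called, where 24.0% of all genes were called. Nkx2-9 (1.32), Irx5 (1.05) and Hoxd13 (0.71) were higher and Irx2 (-0.74), Nkx2-4 (-1.23) and Nkx6-3 (-1.97) lower at 240 h. In the interaction, the test of whether the 240 h and 48 h effects differ, 3 were called (Nkx6-3, Irx5, Nkx2-4), where 10.9% of all genes were called. The kd groups differ in culture time as well as in time of knockdown.

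Several of these changes rested on single libraries or settings. From 48 h to 72 h, Hoxc13 lost its call without any 1 of the 6 libraries compared (adjusted p = 0.057 to 0.105) and Hoxd13 without 48 h kd replicate 1 or 3 or 72 h kd replicate 3 (0.052 to 0.061). From 72 h to 240 h, Hoxd13 lost it without 72 h kd replicate 2 or 3 or any 240 h kd library (0.056 to 0.155). The calls of Irx2, Nkx6-3, Nkx2-9, Irx5 and Nkx2-4 between kd groups held without each library in turn. The 48 h to 72 h call of Hoxc13 was also lost with a pseudocount of 0.02 RPM, without a variance trend and without a minimum (0.051 to 0.116), and that of Hoxd13 with quantile normalization and without a minimum (0.055 to 0.062). The 72 h to 240 h call of Hoxd13 was lost with a pseudocount of 0.5 RPM, where the difference was 0.49, and in a separate fit, without a minimum and with quantile normalization (adjusted p = 0.051 to 0.257).

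The 69 genes below the minimum were followed by their reads, and 36 of them were Hox genes. In sum over the 36 low Hox genes, the libraries gave between 50 and 68 reads in ctrl at 48 h, between 56 and 77 in kd at 48 h, between 72 and 78 in kd at 72 h, between 75 and 93 in ctrl at 240 h and between 142 and 216 in kd at 240 h. The summed level was 6.53 ± 0.88 RPM in ctrl at 240 h and 13.2 ± 2.55 in kd at 240 h (SD, n = 3). All 3 of the 240 h kd libraries were above the other 12. By RPM pooled over a group, 24 of the 36 genes (66.7%) were highest in kd at 240 h. So were 17 of the 33 other low homeobox genes (51.5%) and 26.8% of the 19298 listed genes with reads below the minimum. The 240 h kd libraries also held the most genes above 0, between 26393 and 26535, where no other library had more than 25836.

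The sums were larger in kd at 240 h in all 3 sets of paralog groups, which run from anterior to posterior. The 11 low genes of paralog groups 1 to 4 gave between 20 and 31 reads in ctrl at 240 h and between 45 and 58 in kd at 240 h. Those of groups 5 to 8, also 11 genes, gave between 15 and 24 and between 43 and 78, and the 14 genes of groups 9 to 13 gave between 31 and 38 and between 54 and 80. The 240 h kd and ctrl libraries did not overlap in any of the 3 sets. At 48 h the sums of all 3 sets overlapped between kd and ctrl. At 72 h groups 9 to 13 gave between 33 and 39 reads, above the 16 to 30 in ctrl at 48 h but level with the 31 to 38 in ctrl at 240 h, while the other sets overlapped.

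These sums share reads, since reads in overlapping spans were counted for each gene. The span of Hoxa3 holds Hoxa5 whole, and that of Hoxc5 holds Hoxc8 whole. Without the 11 low Hox genes whose span overlaps that of another homeobox gene, a choice made after the values were seen, the other 25 gave between 52 and 65 reads in ctrl at 240 h and between 84 and 143 in kd at 240 h. In RPM the 240 h kd and ctrl libraries then overlapped for groups 1 to 4 (1.37 to 2.13 in kd, 0.56 to 1.38 in ctrl) and stayed apart in the other 2 sets.

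Single low genes had few reads each. Hoxa3 gave between 18 and 23 reads in kd at 240 h and between 3 and 6 in ctrl at 240 h, Hoxc5 between 15 and 19 against 3 to 6, and Hoxa10 between 14 and 22 against 7 to 10. Hoxb5 gave 2 to 3 reads in kd at 240 h and 0 in ctrl at 240 h. Nkx1-2, a gene of the posterior growth zone, went the other way, with 3 to 9 reads in kd at 240 h and 10 to 23 in ctrl at 240 h. The reads of Hoxa3 and Hoxc5 include those of the genes within their spans, and all 4760 bases of Nkx1-2 lie within Fgfr2, so these reads cannot be assigned to 1 gene.

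When genes were tested without the minimum, 67 of the 69 entered limma. At 240 h, 12 were called higher and 1 lower, where 6.06% of all genes so tested were called higher and 4.17% lower. Those higher were Hoxa3, Hoxa5, Hoxb1, Hoxb4, Hoxb5, Hoxb8, Hoxc5, Hoxc8, Hoxd11, Dlx5, Lhx1 and Six3, and Nkx1-2 was lower. Of the 12, only Hoxb1, Hoxb4, Hoxb8, Lhx1 and Dlx5 overlap no other listed gene, and Hoxa5 shares its reads with Hoxa3 and Hoxc8 with Hoxc5. At 48 h, 1 was called higher, where 2.39% of all genes were. At 72 h, 2 were called higher and 6 lower, where 6.36% and 5.95% of all genes were. From 72 h to 240 h in kd cells, 25 were called higher, where 8.27% of all genes were. Some of these genes, Dlx5 and Hoxb5 among them, stood at 0 reads in the group compared, so fold changes are not given.

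The 33 low genes of the other families summed to between 71 and 103 reads in ctrl at 48 h, 64 and 76 in kd at 48 h, 51 and 56 in kd at 72 h, 88 and 108 in ctrl at 240 h and 130 and 169 in kd at 240 h. Their summed level was 8.04 ± 0.84 RPM in ctrl at 240 h and 10.6 ± 1.05 in kd at 240 h (SD, n = 3). It was lowest in kd at 72 h, at 4.11 ± 0.12. Six3, a forebrain and eye gene, was among those that were higher, with 6 to 18 reads in kd at 240 h and 1 to 3 in ctrl at 240 h.

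**Figure D5:**
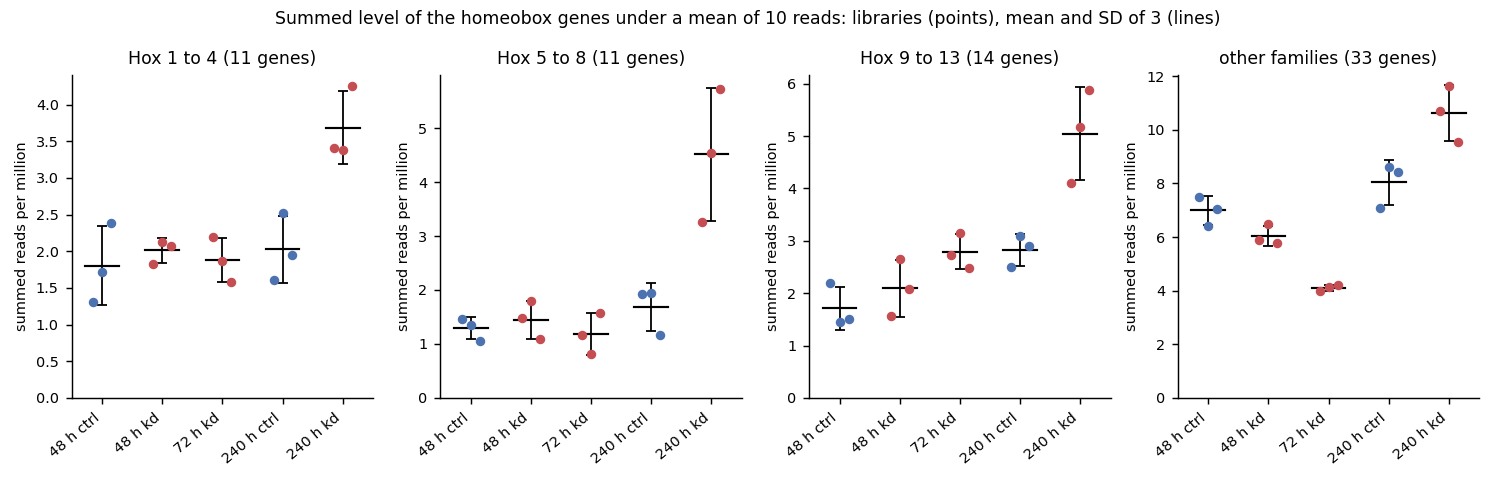
Summed RPM (vertical axes, from 0) of the homeobox genes below the minimum in the 15 libraries (points; blue ctrl, red kd), with the mean and SD of 3 libraries per group (lines), for Hox paralog groups 1 to 4, 5 to 8 and 9 to 13 and for the other families. In all Hox sets the 240 h kd libraries lie above all others, and in the other families the 72 h kd libraries lie lowest.

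Markers of embryonic stem cells and of other cells moved in the same libraries. The 9 embryonic stem cell markers were all detected and summed to between 5379 and 6535 RPM in the other 4 groups and to between 4661 and 4686 in kd at 240 h, where Esrrb, Klf4, Tbx3 and Zfp42 were called lower. The other 5 (Pou5f1, Sox2, Nanog, Tfcp2l1 and Dppa5a) were not called at 240 h, and of them only Dppa5a had a positive difference. Klf4 and Tbx3 were also called lower at 48 h (-0.87 and -1.32) and 72 h (-0.76 and -1.11), and Dppa5a higher at 72 h (1.04). Summed over 7 fibroblast genes the level was 7.97 to 9.09 RPM in ctrl at 240 h and 19.6 to 23.2 in kd at 240 h. Of the 2 tested among them, Col1a1 was called higher (1.79) and Thy1 was not called (-0.50). The 7 trophoblast genes summed to 69.7 to 75.9 in ctrl at 240 h and 113 to 117 in kd at 240 h, with Gcm1, Hand1 and Tfap2c called higher and Eomes lower. Tfap2c alone made up most of this sum in every group. Its mean was 79.2 RPM in ctrl and 51.4 in kd at 48 h, 150 in kd at 72 h, and 66.2 in ctrl and 104 in kd at 240 h. Gcm1 and Hand1 reached the minimum of 10 reads only through kd. At the earlier times this sum was 82.5 to 88.8 in ctrl at 48 h, 53.1 to 57.3 in kd at 48 h and 152 to 158 in kd at 72 h, with Tfap2c called lower at 48 h and higher at 72 h and Eomes lower at 48 h. The 7 neural genes summed to 216 to 235 and 308 to 323, the 7 primitive endoderm genes to 10.6 to 11.3 and 12.9 to 14.4 (Gata6 and Pdgfra called higher, Sox7 lower), and the 6 mesoderm genes to 2.01 to 2.50 and 1.86 to 2.96. The neural sum was 231 to 238 in ctrl at 48 h, 251 to 288 in kd at 48 h and 194 to 211 in kd at 72 h, and that of primitive endoderm 7.85 to 8.74, 5.47 to 6.77 and 5.67 to 7.38. Of the neural genes Sox1 was called higher at 48 h, 72 h and 240 h (1.31, 1.75 and 1.56), Neurod1 higher at 48 h and 240 h and Nes at 240 h, while Map2 was lower at 48 h and 72 h and Tubb3 at 72 h. Sox7 was called lower at 48 h and 72 h too, and Pdgfra higher at 48 h. The fibroblast and mesoderm sums of these groups overlapped, with Col1a1 called higher and Thy1 lower at 48 h and 72 h, and the 1 mesoderm gene tested, Tbx6, called higher at both times (1.31 and 1.26) after reaching the minimum only through kd. Of the markers followed, the trophoblast gene Tpbpa was at 0 in kd at 240 h, and the fibroblast genes Dcn and Lum gave 2 reads each over its 3 libraries. Of the other low fibroblast genes, Col1a2 gave 5 to 6 reads in ctrl at 240 h and 22 to 30 in kd at 240 h, Col3a1 0 to 5 and 8 to 17, and Postn 0 and 2 to 3. The part of such cells in the homeobox changes was not tested.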

How the data were processed

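RNA-seq was analysed in 15 libraries of 5 groups (3 per group), grouped by the sample labels. Per the labels and methods, the authors aligned single reads to mm10 (GRCm38.p6) with STAR 2.7.0c, counted reads per gene and tested them with DESeq2 1.30.0 in R 4.0.3. The gene annotation used for counting is not given in the sources used here. The deposited values are FPKM, 1 per gene and library. Multiplied by gene span and a library total, they gave whole reads for 100% of values (tolerance 0.001). Reads summed over genes exceeded the totals by 7.38% to 8.34%, so reads in overlapping genes were counted more than once. Counting without regard to strand was inferred from the values and is not stated by the sources used here. Identifiers and strand came from GENCODE M21, which 84 of the 84 homeobox genes matched.

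The homeobox genes and the lists were chosen with earlier results of these data known. A few further genes whose symbols match are not reported here. The rule named every homeobox gene with a mean of at least 10 reads. It gave the value in every library for those called in a knockdown comparison or in the interaction. The others were named by ranges. Neighbours were picked once their values had been seen.

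Reads scaled to a common library total (RPM) were tested with limma 3.58.1 in R 4.3.3 (lmFit, contrasts, eBayes with a trend; two-sided) on log2(RPM + 0.1). A single fit held all 15 libraries (10 residual degrees of freedom) and the 16370 genes whose mean reached 10 reads, with Benjamini-Hochberg adjustment over all of them. As in the study, a call needed an adjusted p under 0.05 with a log2 fold change beyond 0.58 either way, and 72 h kd was set against 48 h ctrl. The interaction was the 240 h effect minus the 48 h effect. Simulated data had 200 changed genes drawn from all those tested, with 1 fixed dispersion, and limma recovered on average 82.8% of 2-fold and 99.7% of 4-fold changes. Recovery was not measured for the homeobox genes or for genes with few reads. Promoters came from RefSeq (GRCm38.p6). Alternatives covered the pseudocount, the minimum, scaling, the fit, the replicate block, FPKM, voom, the fold threshold, the 72 h control and each library left out in turn.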

Additional observations from a re-analysis of the deposited data

Results flagged for a closer look

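For 3 homeobox genes the effect of knockdown differed between 240 h and 48 h in the test of the difference itself, where 10.9% of all genes tested were called. The difference of the effects was -3.72 on the log2 scale for Nkx6-3 (limma, adjusted p = 6.28e-12), whose 240 h kd libraries (34, 45 and 34 reads) lay below and whose 48 h kd libraries (299, 246 and 286 reads) lay above all others. This call held without each library in turn.

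The difference was 0.93 for Irx5 (limma, adjusted p = 0.039) and -1.34 for Nkx2-4 (limma, adjusted p = 0.045). Irx5 lost its call in 7 of the 15 fits that left out 1 library, namely 48 h ctrl replicate 1 or 3, 48 h kd replicate 1, 240 h ctrl replicate 1 or 2 and 240 h kd replicate 2 or 3 (adjusted p = 0.058 to 0.091). Nkx2-4 lost it in 11 of the 15, and kept it without 48 h ctrl replicate 3, 48 h kd replicate 1, 72 h kd replicate 2 or 72 h kd replicate 3 (adjusted p in the 11 = 0.052 to 0.136). Without a minimum neither was called (0.118 for Irx5 and 0.139 for Nkx2-4), and Nkx2-4 was not with a pseudocount of 0.5 RPM (0.071).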

How the results depend on the processing

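Of 1158 values computed under the alternatives for 43 log2 fold changes (called homeobox genes and Smarcb1), 1078 kept direction and call, 80 kept direction and lost the call and 0 reversed. Numbers of homeobox genes called were 3, 4 and 4 at 48 h, 72 h and 240 h with a minimum of 30 reads, 2 between each pair of kd groups and 1 in the interaction. Without a minimum they were 16 at 72 h, 23 at 240 h and 30 from 72 h to 240 h in kd cells. Of all genes so tested, 6.36% were then called higher and 5.95% lower at 72 h, and 6.06% higher and 4.17% lower at 240 h. From 72 h to 240 h in kd cells, 8.27% of them were called higher. On log2(FPKM + 0.1) over genes of at least 0.5 FPKM they were 5 at 72 h, 5 at 240 h, 2 from 48 h to 72 h, 3 from 72 h to 240 h and 1 in the interaction. Without a fold threshold 2 were called between controls, and with a threshold of 1 there were 6 at 72 h, 0 between controls and 1 from 48 h to 72 h. With 240 h ctrl as the control for 72 h, 5 were called. The smaller numbers at 30 reads and in FPKM come with fewer genes tested.

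Leaving out 1 library gave 5 to 7 calls at 48 h, 7 to 11 at 72 h, 9 to 11 at 240 h, 0 to 2 between controls, 2 to 4 from 48 h to 72 h, 5 to 7 from 72 h to 240 h and 1 to 3 in the interaction. Pax8 fell under the minimum in 4 of these fits. Without 48 h kd replicate 2, 2 were called between controls. Over all genes, 526, 1532 and 1010 were called at 48 h, 72 h and 240 h in FPKM, 5426, 9384 and 7253 without a fold threshold and 608, 1503 and 1251 with a threshold of 1. With the replicate number as a block, calls were 6, 10 and 10 at 48 h, 72 h and 240 h, and only Nkx2-4 in the interaction lost its call (adjusted p = 0.055). The deviations of same-numbered libraries from their group means correlated with r between -0.374 and 0.354 over 12574 genes. With 3 libraries per group this cannot decide whether the numbers pair them. Depth limits all genes near 10 reads.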

Other observations

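Cofactors and upstream regulators of the homeobox genes were followed as lists. Of 11 TALE cofactors, which bind DNA beside Hox proteins, Meis2 was called higher at 48 h, 72 h and 240 h (log2 fold change 1.51, 2.55 and 1.46) and Meis3 lower at 48 h and 72 h (-0.79 and -0.79). That is 18.2%, 18.2% and 9.09% of the list at 48 h, 72 h and 240 h, where 10.2%, 22.2% and 16.9% of all genes were called. Over the ctrl libraries alone Meis2 would have missed the minimum of 10 reads. The list's median was 0.02, -0.06 and 0.19 at 48 h, 72 h and 240 h, where that of all genes tested was 0.01, 0.01 and 0.00. Of 4 tested Six-family and Lhx partners of 8 listed, Eya1, a cofactor of Six-family factors, was called lower at 72 h (-1.63) and 240 h (-0.88) and Dach2 at 72 h (-1.16), which makes 0%, 50% and 25% of the tested genes called at the 3 times, with medians of -0.20, -0.72 and -0.30. At 48 h Eya1 was not called (-0.34; limma, adjusted p = 0.110).

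Of 9 tested chromatin and upstream regulators of Hox genes, Cdx1 was lower at 48 h (-0.96), Cdx4 higher at 48 h and 72 h (1.07 and 1.18) and the Polycomb subunit gene Eed lower at 72 h (-0.76). These were 22.2%, 22.2% and 0% of the tested genes at the 3 times. Cdx2, listed but below the minimum, gave 0 to 2 reads in ctrl at 48 h, 1 to 4 in kd at 48 h and 2 to 4 in kd at 72 h. At 240 h it gave 4 to 8 reads in ctrl and 28 to 32 in kd. Leaving out 1 library gave 0 to 2 calls in this list at 48 h and 1 to 2 at 72 h, and none were called at 48 h without 48 h ctrl replicate 2 or 48 h kd replicate 3. The groups of Cdx4 overlapped, and it reached the minimum through the kd libraries alone. At 240 h the Polycomb genes Suz12 (0.23), Ezh2 (-0.19) and Rnf2 (-0.14) differed with adjusted p = 3.06e-04, 4.42e-04 and 0.012 in limma, all under the fold threshold. The medians were 0.02, -0.07 and -0.04.

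Among 56 other developmental homeobox genes, 17 were tested. Of these, 4 reached the minimum through 1 condition, namely Lmx1b, Gsx1 and Hhex through kd and En1 through ctrl, so the list's counts are not comparable with the background. At 48 h, 4 were higher and 4 lower, at 72 h 5 higher and 7 lower, and at 240 h 4 higher and 0 lower, where 10.2%, 22.2% and 16.9% of all genes were called. The list had medians of 0.04, -0.26 and 0.40. Lmx1b, a gene of limb and midbrain, was higher at 48 h, 72 h and 240 h (0.85, 1.86 and 2.90), whereas the anterior gene Otx2 (-1.70 and -1.87) and the midbrain gene En1 (-1.68 and -3.0) were lower at 48 h and 72 h. Gsx1 was lower at 72 h (-0.87) and higher at 240 h (2.94).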
